A study of Mus musculus with 8 samples.

Results

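Chemokines are small secreted proteins that direct cell migration, and here all genes of the mouse chemokine family and their receptors were followed across the cells of a childhood brain tumor model. Members were taken by gene symbol: the Ccl and Cxcl ligands, the Ccr, Cxcr and Ackr receptors, and Xcl1, Xcr1, Cx3cl1, Cx3cr1, Pf4 and Ppbp. This gave 63 of the 33696 genes in the files, 41 ligands and 22 receptors. The cells came from the brains of NestinCreERT2;Fus1;RFPTdT mice, in which Cre recombinase under the Nestin promoter switches on the ZFTA-RELA fusion in neural progenitors and ependymoma follows; all groups carried these alleles. Mice were randomized at 3 weeks of age to 1 intrathecal dose of mavrilimumab (5 mg per kg), an antibody that binds GM-CSF receptor alpha, or to a control antibody (vehicle IgG), and were collected at a humane endpoint at 6 to 8 weeks. Dissociated tissue was sorted after staining for Ter119, which marks red cells, and CD45, which marks leukocytes; the study's methods describe the sorted cells as extravascular and CD45-positive. There were 4 droplet libraries, 2 per treatment label, each a pool of animals by the study's methods, so that a p-value below measures only the spread between pools. Whether mavrilimumab bound the mouse receptor in these animals was not tested.

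Chemokine names follow the spacing of cysteines near the start of the protein, as in the CC, CXC, XC and CX3C classes. Their receptors pass through the membrane many times and signal through Gi proteins, after which kinases and arrestins switch them off, while the atypical receptors of the Ackr series bind ligand without that signal. Several ligands can share a receptor, as Ccl2, Ccl7 and Ccl12 share Ccr2, whereas Cx3cl1 and Cx3cr1, or Xcl1 and Xcr1, are exclusive partners. In the brain the family is known best for Cx3cr1 on microglia, the resident macrophages, and in tumors for ligands that call in T cells, monocytes or neutrophils.

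Cells with at least 1000 UMIs (unique molecular identifiers, 1 per captured transcript) and at most 10% mitochondrial UMIs were kept. By label, vehicle IgG 1 gave 1171 cells, vehicle IgG 2 gave 26825, mavrilimumab 1 gave 6412 and mavrilimumab 2 gave 5858. Median depth ran from 3307 to 14118 UMIs per cell. Cells were assigned to 6 groups by counts of a few marker genes (Cd3e with Cd8a, Cd8b1 or Cd4 for T cells, Ncr1 and Klrb1c for NK cells, P2ry12 and Tmem119 for microglia, S100a8, S100a9 and Csf3r for neutrophils, Nnat and Mdk for neural cells without Ptprc): 5602 CD8 T cells, 2549 CD4 T cells, 869 natural killer (NK) cells, 2060 microglia, 148 neutrophils and 16132 neural cells. The groups were uneven between libraries, since 15660 of the neural cells came from vehicle IgG 2. The gate asked for no count of Ptprc, the CD45 gene, in these cells, which a sort for CD45-positive cells is meant to leave out, and how they entered the libraries was not tested. A group entered a comparison in a library with at least 20 of its cells, so that NK cells rested on 3 libraries (all but vehicle IgG 1), and neutrophils and neural cells on 2 (vehicle IgG 2 and mavrilimumab 2). Because the gates fix the levels of their own genes, the groups were checked on other markers, summed in CPM (a gene's UMIs per 1000000 UMIs of the group's cells in a library). The 6 such microglial markers were at 11758 to 18063 CPM in microglia and at most 3094 CPM elsewhere, the 5 neutrophil markers at 4927 to 10976 CPM in neutrophils and at most 33 CPM elsewhere, and the 6 neural markers at 1527 to 1675 CPM in neural cells and at most 619.5 CPM elsewhere. The 5 NK markers (3872 to 7045 CPM) and 3 CD4 T markers (374 to 684 CPM) stood above every other group, while the 2 left for CD8 T cells, Gzmk and Nkg7, overlapped with NK cells. The T cell receptor files carried inner sample names that give the other treatment in 3 of 3 cases, so that vehicle IgG 1 and the other library names below stand for the labels and no more. Cell barcodes shared between any pair of libraries numbered 0 to 60.

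Of the 63 members, 5 had no UMI in any kept cell (Ccl20, Ccl21b, Ccl21d, Ccl27b and Cxcl15), 13 had 1 to 100 UMIs and 45 had more. Between cell groups 42 members passed the filter on low counts, and 21 were not tested. Each group was set against the mean of the other groups with edgeR's quasi-likelihood test on summed UMIs, with the library as a block, and a gene was called at a Benjamini-Hochberg adjusted p under 0.05 and a log2 difference of at least 1. Of the 42 tested members, 41 were called higher in at least 1 group, all but Ccl25, and 27 of them in exactly 1 group. For 29 of the 42, the libraries of the group with the highest mean all lay above those of the group with the next mean. Groups further down were not compared, and Ccr2 is among the 29 although neutrophils overlapped NK cells. Since a member had to be seen in some group to be tested, these counts describe the tested members only. No share of all genes is given for them, so they do not set the members apart from other genes. For single groups that share follows. The counts stand beside the share of all 15969 tested genes called higher: 9 members (21.4%) against 10.2% of genes in CD8 T cells, 9 (21.4%) against 8.64% in CD4 T cells, 7 (16.7%) against 6.16% in NK cells, 19 (45.2%) against 19.5% in microglia, 11 (26.2%) against 10.6% in neutrophils, and 6 (14.3%) against 24.8% in neural cells. The neural group was the only one of the 6 with fewer members higher than lower, 6 against 17, where 13.1% of all genes were lower. Elsewhere lower calls were 6 in CD8 T cells (5.75% of all genes), 5 in CD4 T cells (3.74%), 4 in NK cells (1.97%), 3 in microglia (Ccr7, Cxcr3 and Cxcr4; 5.02%) and 1 in neutrophils (Ccl5; 9.55%). The median log2 difference of the members, beside that of all tested genes, was 1.49 beside 0.21 in microglia, -1.99 beside -0.49 in neutrophils, -2.43 beside 0.22 in neural cells, -0.04 beside 0.10 in CD8 T cells, 0.09 beside 0.07 in CD4 T cells and -0.12 beside -0.0044 in NK cells. Without mavrilimumab 2, neutrophils and neural cells rested on vehicle IgG 2 alone, and fewer members and fewer of all genes were called higher.

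**Figure D1:**
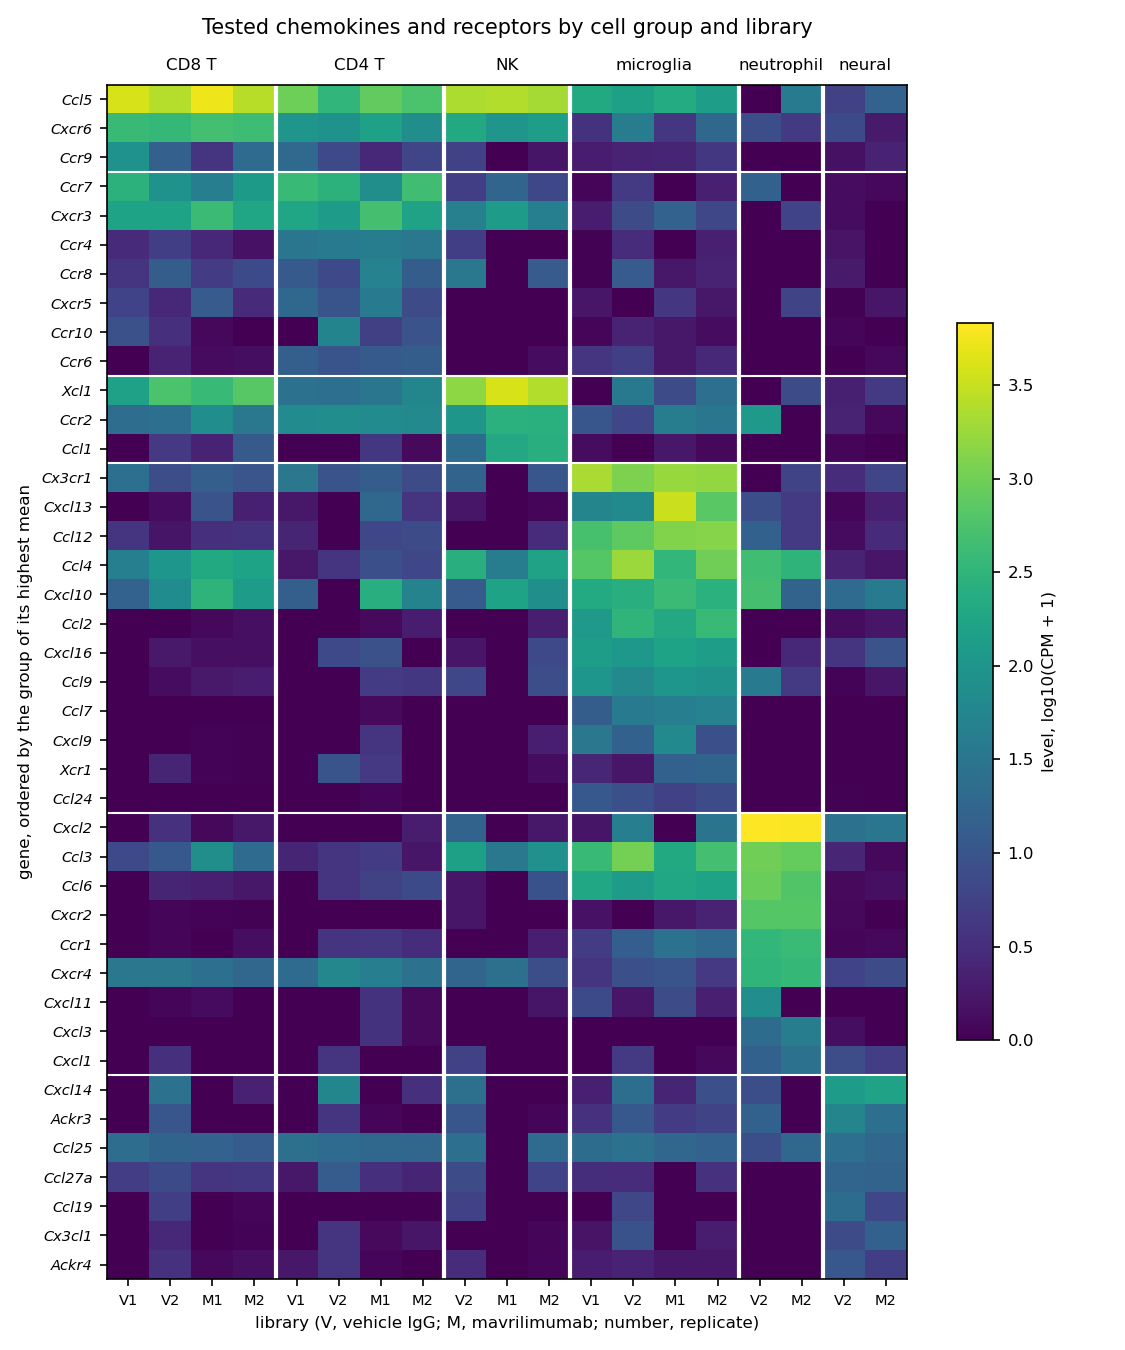
Level of 41 tested members (rows) in each library of each cell group (columns, 2 to 4 libraries per group), as log10(CPM + 1) from dark to bright; white lines separate cell groups and the rows by the group with the highest mean. Bright blocks sit along the diagonal because the rows are sorted by these same values. Of those drawn, 12 are highest in microglia, 9 in neutrophils and 3 in CD8 T cells, and Cxcl2 in neutrophils is the brightest row.

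In CD8 T cells the leading member was Ccl5, a ligand of Ccr1 and Ccr3 that cytotoxic cells store and release. Its level was 3967 CPM in vehicle IgG 1, 2530.4 in vehicle IgG 2, 5391 in mavrilimumab 1 and 2582 in mavrilimumab 2, the order kept below for 4 values. In each of the 3 libraries with both groups CD8 T cells were above NK cells, whose mean was 2273 ± 198 CPM (SD, n = 3), and the means over these libraries differed 1.54-fold; folds between groups are given below in the same way, over the libraries that hold both. The fitted log2 difference from the other groups was 4.56 (SE 0.26, adjusted p = 3.93e-08). Ccl5 also made up the largest count of the family, with 216496 UMIs in kept cells, of which 67.6% were in CD8 T cells. Empty droplets (barcodes of at most 100 UMIs) held 191, 134, 2195 and 692 CPM of it, so that the library with the highest CD8 T level also had the most free Ccl5. In CD4 T cells, at 971, 329, 814 and 555 CPM, the level was below that of the empty droplets in both libraries labelled mavrilimumab.

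Cxcr6, the receptor for Cxcl16 found on tissue-resident T cells, was at 389.7, 359, 487 and 430.5 CPM in CD8 T cells. NK cells followed at 148 ± 58.5 CPM (n = 3) and CD4 T cells at 104 ± 33.8 CPM (n = 4), and the CD8 T libraries did not overlap either. Empty droplets held 83.8, 65.9, 238 and 157 CPM of Cxcr6, less than CD8 T cells in each library but more than CD4 T cells in both labelled mavrilimumab. Of its UMIs, 44.6% were in cells that met no gate. Cxcr3, the receptor for the interferon-induced ligands Cxcl9, Cxcl10 and Cxcl11, was at 166, 164, 409 and 185 CPM in CD8 T cells and at 180.4, 125, 495 and 159.9 CPM in CD4 T cells. The 2 T cell groups overlapped, CD4 T cells being above CD8 T cells in 2 of 4 libraries, and in both the library labelled mavrilimumab 1 was the highest. That library also had the highest Cxcr3 level in empty droplets, 273 CPM against 10.5 to 67.5 CPM in the others, and the part of free RNA in the T cell values was not tested.

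Ccr7 guides naive and central memory T cells to lymph nodes, and it was highest in CD4 T cells, at 389, 291, 76 and 449 CPM, ahead of CD8 T cells, at 284, 90, 43.1 and 123 CPM. CD4 T cells were above CD8 T cells in 4 of 4 libraries, although the ranges over libraries overlapped. Every other group had at most 16.5 CPM in a library that entered the comparison. Ccr9, a gut-homing receptor, was called higher in CD8 T cells (91, 13.9, 2.72 and 20.6 CPM), and its spread followed that of Ccr7, with vehicle IgG 1 the highest and mavrilimumab 1 the lowest for CD8 T cells in both.

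CD4 T cells had the highest mean of 7 receptors, some of which other groups shared. Ccr4, a receptor of regulatory and type 2 helper T cells, was at 31.1, 38.5, 39.6 and 32.6 CPM there and at most 4.18 CPM in a library of any other group, a log2 difference of 7.05 (SE 0.79, adjusted p = 2.91e-05). Ccr6, a receptor of type 17 helper and some regulatory T cells, was low but as steady, at 13.3, 8.89, 11 and 12.3 CPM, with microglia, where it was also called higher, next at 2.34 ± 1.44 CPM (n = 4). Its ligand Ccl20 had no UMI. Ccr8, found on regulatory T cells in tumors, was at 11.1, 5.93, 48.9 and 12.3 CPM, with the library labelled mavrilimumab 1 the highest, and overlapped NK cells. Cxcr5, the receptor for Cxcl13 on B cells and follicular helper T cells, was at 17.7, 8.89, 35.5 and 6.76 CPM, overlapped CD8 T cells, and was called higher in CD8 T cells and neutrophils too, in neutrophils on 3 UMIs of mavrilimumab 2 and none of vehicle IgG 2 (adjusted p = 0.0468). For Ccr4 and Ccr8, 70.8% and 73.6% of all UMIs in kept cells lay in cells that met no gate, so most of their signal is outside the groups compared here.

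**Figure D2:**
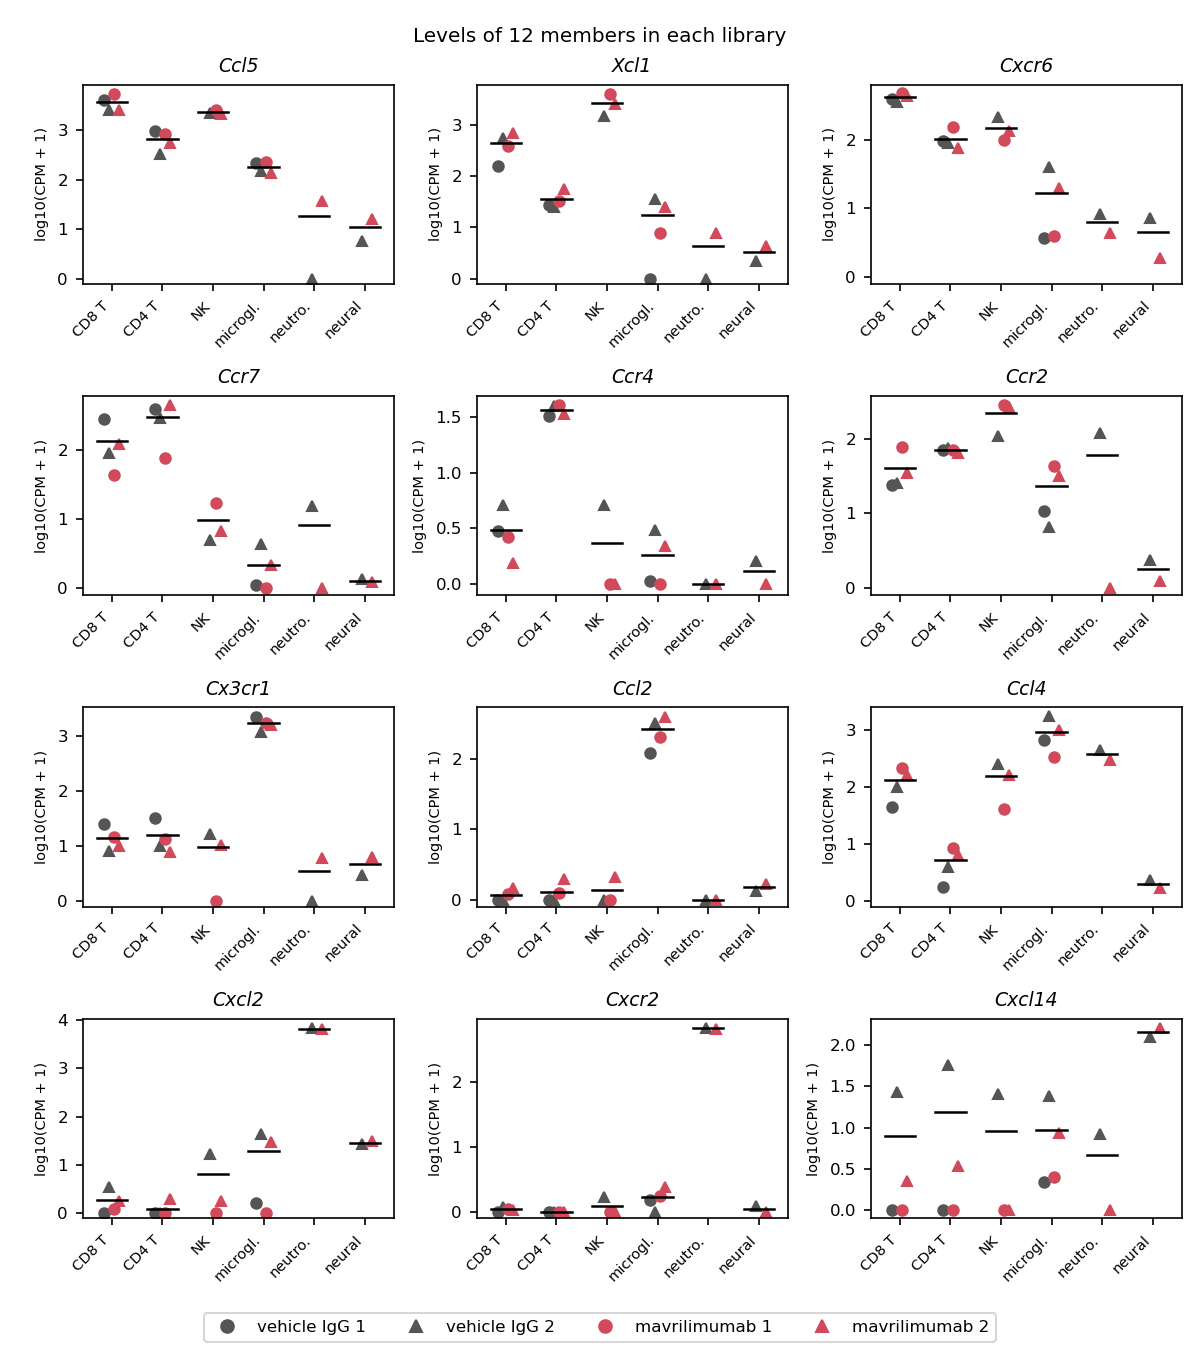
Level of 12 members, log10(CPM + 1), in each library (gray, vehicle IgG; red, mavrilimumab; circles, replicate 1; triangles, replicate 2) of the 6 cell groups, with a bar at the mean. The receptors Cxcr6, Ccr7 and Ccr4 stand high at the left, Cx3cr1 and Ccl2 in microglia, Cxcl2 and Cxcr2 in neutrophils and Cxcl14 in neural cells, while in CD8 T cells, CD4 T cells, NK cells and microglia Cxcl14 is highest in vehicle IgG 2.

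NK cells had the highest level of Xcl1, the ligand by which cytotoxic cells attract cross-presenting dendritic cells. It stood at 1511 CPM for vehicle IgG 2, 4012 CPM in mavrilimumab 1 and 2477 CPM in mavrilimumab 2, and was 4.93-fold above CD8 T cells on the means, with no overlap. The log2 difference from the other groups was 6.89 (SE 0.61, adjusted p = 3.48e-06). CD8 T cells came second, at 157, 558, 385 and 681 CPM, and CD4 T cells had 34 ± 14.7 CPM (n = 4). Ccr2, the receptor for Ccl2, Ccl7 and Ccl12 that brings monocytes out of the marrow, was at 106, 280.1 and 265 CPM in NK cells, above CD4 T cells at 68.8 ± 4.42 CPM (n = 4). Neutrophils overlapped NK cells, with 117 CPM (16 UMIs) in vehicle IgG 2 and 0 in mavrilimumab 2, and 54.9% of Ccr2 UMIs were in cells of no gate.

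Ccl1, the ligand of Ccr8, was called higher in NK cells, at 21.8, 206 and 259.9 CPM, with CD8 T cells next at 3.96 ± 4.99 CPM (n = 4). The value rested on very few cells. In the library labelled mavrilimumab 2, 1 of 402 NK cells held 1343 of the 1636 Ccl1 UMIs, and in mavrilimumab 1, 1 of 20 cells held all 25, while in vehicle IgG 2, 1 of 442 cells held 17 of 32. Xcl1 was spread more widely: the 10% of NK cells with most of it held 49.9% of its UMIs in mavrilimumab 2 and 45.7% in vehicle IgG 2.

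Microglia had the most members, and Cx3cr1, the receptor that defines them, had the highest mean there, at 2244, 1174, 1736 and 1602 CPM. Ccl4 was above it in vehicle IgG 2, at 1776 CPM, and Cxcl13 in mavrilimumab 1, at 3352 CPM. For Cx3cr1 every other group was below 32 CPM in each library that entered, and 92.9% of all its UMIs were in microglia. It was also the most evenly held of the microglial members examined by cell, the 10% of microglia with most UMIs holding 25.4% to 28.1% of them. The ligands of Ccr2 formed a block with it. Ccl12 was at 510.2, 747, 1272 and 1349 CPM, Ccl2 at 118, 322, 202 and 394 CPM, and Ccl7 at 12.6, 36.9, 42.9 and 49.5 CPM.

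For these Ccr2 ligands no other group came near. The next group, neutrophils for Ccl12 and neural cells for Ccl2, was 116-fold and 702-fold lower on the means, and the fitted log2 differences of Ccl12, Ccl2 and Ccl7 were 9.07 (SE 0.30), 10.66 (SE 0.30) and 10.51 (SE 0.47), with adjusted p of 1.25e-11, 1.20e-11 and 6.13e-09. Fitted differences of this size depend on the count added to groups near 0. In contrast to Cx3cr1, the ligands were held by few cells, the top 10% of microglia holding 66.2% to 79.1% of Ccl12 UMIs and 71.8% to 88.3% of Ccl2 UMIs. Ccr2 itself was at 5.47 to 41.4 CPM in microglia.

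Ccl3 and Ccl4, ligands released by activated macrophages and neutrophils, were at 397, 1058, 208 and 483 CPM and at 660.0, 1776, 341 and 1015 CPM in microglia. In both, the libraries numbered 2 were above those numbered 1 within each treatment label. Ccl4 was higher in microglia than in neutrophils in both libraries that held both, whereas Ccl3 was higher in neutrophils in 1 of 2 (988 and 836 CPM in neutrophils), so the 2 groups cannot be ordered for Ccl3. Cxcl16, which holds Cxcr6-bearing cells, was at 140.1, 109, 165 and 140.2 CPM in microglia, and no other group passed 8.7 CPM in a library that entered.

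Of the Cxcr3 ligands, Cxcl9 was a low microglial member, at 31.7, 14.3, 65.5 and 7.63 CPM. Cxcl10 was higher and less particular, at 219, 257, 412 and 276 CPM in microglia and 14.8, 71.5, 309 and 128 CPM in CD8 T cells, and in neutrophils it was at 505 CPM in vehicle IgG 2 and 15.3 CPM in mavrilimumab 2. Its empty droplets held 61.8, 14.1, 179.5 and 106 CPM. Cxcl13, the B cell attractant and ligand of Cxcr5, was at most 18 CPM in any library of another group and reached 3352 CPM in microglia, with a spread between libraries that is taken up below with the treatment labels. Ccl6 and Ccl9, mouse macrophage ligands of Ccr1, and Ccl24, an eosinophil attractant, were also called higher in microglia, at 173 ± 30.4, 88.2 ± 18.9 and 7.26 ± 2.35 CPM (n = 4).

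Neutrophils were few, 49 and 73 cells in the libraries that entered, but had the highest level of any member. Cxcl2, a neutrophil attractant that neutrophils also make, was at 6764 CPM for vehicle IgG 2 and 6398 CPM in mavrilimumab 2, and its receptor Cxcr2 at 666 and 652 CPM in the same libraries. The log2 differences were 10.39 (SE 0.46, adjusted p = 7.03e-10) for Cxcl2 and 12.40 (SE 0.39, adjusted p = 7.04e-10) for Cxcr2. The next group was 234-fold lower for Cxcl2 and 943-fold lower for Cxcr2. The 9 and 17 neutrophils of the libraries left out had 3294 and 4569.8 CPM of Cxcl2, below the libraries that entered and above every other group. The related ligands Cxcl1 and Cxcl3, which act on the same receptor, were much lower, at 14.6 and 25.5 CPM and at 22 and 39.1 CPM, and both were called higher in neutrophils. Cxcl3 was not called by DESeq2 (adjusted p = 0.146) or without mavrilimumab 2 (edgeR, adjusted p = 0.132).

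Cxcl1, Cxcl2 and Cxcl3 lie on mouse chromosome 5, and the sequence before each start is shown because these 3 members were called higher in the same group. The promoters (250 bases before to 50 after the start, RefSeq, GRCm38.p6) are printed 5′ to 3′. Capitals mark a match to the kappaB consensus, the motif of NF-kappaB, searched on both strands with the fifth base left free.
Cxcl1 (chr5:90890995-90891294, plus strand): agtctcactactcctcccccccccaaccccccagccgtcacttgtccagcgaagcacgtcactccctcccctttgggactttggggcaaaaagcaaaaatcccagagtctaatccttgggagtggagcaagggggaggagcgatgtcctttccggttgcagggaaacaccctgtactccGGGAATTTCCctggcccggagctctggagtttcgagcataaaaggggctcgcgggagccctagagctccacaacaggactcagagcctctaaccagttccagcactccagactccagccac
Cxcl2 (chr5:90903649-90903948, plus strand): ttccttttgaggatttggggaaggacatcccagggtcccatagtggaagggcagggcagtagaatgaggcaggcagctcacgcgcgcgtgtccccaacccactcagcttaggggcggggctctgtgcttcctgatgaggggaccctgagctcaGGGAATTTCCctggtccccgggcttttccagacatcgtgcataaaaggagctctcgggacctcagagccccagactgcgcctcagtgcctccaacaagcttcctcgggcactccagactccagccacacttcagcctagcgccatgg
Cxcl3 (chr5:90785851-90786150, plus strand): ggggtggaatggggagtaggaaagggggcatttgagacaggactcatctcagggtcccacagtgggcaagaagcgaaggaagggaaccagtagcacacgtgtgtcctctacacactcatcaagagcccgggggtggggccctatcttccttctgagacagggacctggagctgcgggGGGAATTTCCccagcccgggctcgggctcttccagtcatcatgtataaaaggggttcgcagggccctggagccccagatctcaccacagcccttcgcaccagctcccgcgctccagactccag
The match began 71 bases before the start in Cxcl1, 97 in Cxcl2 and 73 in Cxcl3. Of the 63 members 48 had a promoter in the table, and 4 of the 48 held this motif, Ccr3 being the other, against 0.466% of all 27025 genes with a promoter. The interferon-response (ISRE) core was found in 3 members (Ccl19, Cxcl10 and Cxcl14) against 3.99% of genes, TTCNNNGAA, a STAT motif, in 3 (Ccl17, Ccr6 and Cxcl14) against 9.55%, and TGACTCA, an AP-1 motif, in 7 against 5.95%. The motifs were chosen with the results known, and a match is a description of letters, not of binding.

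Cxcl10, an interferon-induced ligand found here in several cell groups, had its interferon-response core 213 bases before the start, in capitals below.
Cxcl10 (chr5:92348840-92349139, minus strand): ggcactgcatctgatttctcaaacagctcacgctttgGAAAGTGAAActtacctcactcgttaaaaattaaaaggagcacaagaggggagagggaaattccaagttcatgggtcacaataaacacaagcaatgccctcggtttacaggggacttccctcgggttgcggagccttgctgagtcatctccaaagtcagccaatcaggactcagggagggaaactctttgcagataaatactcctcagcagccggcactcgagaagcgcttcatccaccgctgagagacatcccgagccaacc
Of the 48 members with a promoter in the table, those on chromosome 5 were Cxcl1, Cxcl2, Cxcl3, Cxcl9, Cxcl10, Cxcl13, Cxcl15, Pf4 and Ppbp. Of the 6 of these that were tested, 3 were highest in neutrophils and 3 (Cxcl9, Cxcl10 and Cxcl13) in microglia. Among the 48, chromosome 9 held the most, 11, and all 11 were receptors. Members without a promoter there were not placed, so chromosomes are not ranked over the whole family. Pf4 and Ppbp, the platelet chemokines, had 78 and 9 UMIs in all kept cells.

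Neutrophils also led for Ccr1 (344 and 414 CPM), Cxcr4 (315 and 356 CPM) and Ccl6 (886 and 608 CPM). Ccr1, the receptor for Ccl3, Ccl5, Ccl6 and Ccl9, was 23.6-fold above microglia. Cxcr4, which retains neutrophils and progenitors in marrow through Cxcl12, was 7.83-fold above CD4 T cells on the means, with no overlap. Cxcl12, its ligand, had only 119 UMIs in kept cells and was not tested, and its level was at most 0.708 CPM in a library of any of the 6 groups that entered. Cxcl11 was called higher in neutrophils on vehicle IgG 2 alone, at 73.2 CPM there and 0 in mavrilimumab 2. It was also called higher in microglia, at 6.35, 0.683, 6.77 and 1.18 CPM (log2 2.51, SE 0.83, adjusted p = 0.0302). Monocyte or macrophage markers in these neutrophils of vehicle IgG 2 and mavrilimumab 2 were mixed. F13a1 (220 and 18.7 CPM), Plac8 (666 and 182) and Ly6c2 (732 and 585) were higher in vehicle IgG 2. Lyz2 (2921 and 8704) was lower, and Mrc1 and Ms4a7 were at 0. Their part in the Cxcl11, Cxcl10 and Ccr2 values was not tested.

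The neural group, cells without Ptprc (the CD45 gene), had the fewest members called higher, 6, although 7 had their highest mean there. Cxcl14, a chemokine of epithelia and brain, led at 126 CPM in vehicle IgG 2 and 161 CPM in mavrilimumab 2, a log2 difference of 5.01 (SE 0.79, adjusted p = 0.000212). Ackr3, the scavenging receptor for Cxcl12, was at 55.2 and 24.3 CPM, and was not called without mavrilimumab 2 (edgeR, adjusted p = 0.0523). Ccl27a, Ccl19, Cx3cl1 and Ackr4 were also called higher there, at 15.3 to 16.8, 5.49 to 21.4, 6.85 to 14.7 and 4.12 to 10.1 CPM. Cx3cl1, the partner of microglial Cx3cr1, was therefore low in the captured cells, and microglia of vehicle IgG 2 showed 8.2 CPM of it, above its neural cells. In vehicle IgG 2, with most neural cells, the empty droplets held 126 CPM of Cxcl14 and the leukocyte groups 7.32 to 56.3 CPM, while the sum of all 8 neural markers, Nnat and Mdk of the gate included, was at 1491 CPM in its CD8 T cells against 3.24 to 55.9 CPM in the other 3 libraries. The part of free RNA in those values was not tested.

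The signaling genes downstream of the receptors, a list of 22 (G proteins, receptor kinases, arrestins, Rgs regulators, PI3K-gamma and Rac-pathway genes, Ccrl2 and the chemokine-cleaving protease Dpp4), were all tested. In microglia 10 were higher and 1 lower, in neutrophils 10 and 0, in CD8 T cells 6 and 2, in CD4 T cells 6 and 0, in NK cells 3 and 0, and in neural cells 2 and 14. The shares of all tested genes called, higher and lower, were those given above for the members. The median log2 difference of the list was 0.83 in microglia and 0.95 in neutrophils, beside 0.21 and -0.49 over all genes, and -2.12 in neural cells, beside 0.22. It was 0.11 in CD8 T cells, 0.07 in CD4 T cells and 0.03 in NK cells, beside 0.10, 0.07 and -0.0044. Ccrl2, a chemerin-binding atypical receptor, was higher in neutrophils (log2 5.75, SE 0.41), and Dpp4 was higher in CD8 T cells (4.69) and in CD4 T cells (3.84). Rac2, the leukocyte Rac needed for migration, was called higher in CD8 T cells (2.16), neutrophils (2.20), CD4 T cells (1.92) and NK cells (1.51).

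Between treatment labels, members were tested within each group that had libraries of both labels, except neutrophils and neural cells, with 1 library per label. In microglia, CD8 T cells and CD4 T cells no member of 29, 21 and 21 tested was called by edgeR, beside 0%, 0% and 0% of all tested genes. At an unadjusted p under 0.05 there were 4, 6 and 2 members and 242, 502 and 285 genes. DESeq2 called 1 (Cxcl13), 0 and 0 members and 7, 16 and 1 genes. With 2 libraries per label, the values of a gene often fall apart by label without a difference. The share of all genes that did so is not given, so a lack of overlap below does not set a member apart.

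In microglia the member with the largest difference was Cxcl13. It stood at 53.8 CPM under vehicle IgG 1, 67.6 CPM under vehicle IgG 2, 3352 CPM under mavrilimumab 1 and 719 CPM under mavrilimumab 2. The labels did not overlap, but the libraries labelled mavrilimumab lay far apart (mean 2035 ± 1862 CPM, n = 2), and the difference of 5.15 on the log2 scale (SE 0.93, unadjusted p = 0.00405) was not called, with an adjusted p of 1.00. The transcript was held by a minority of cells: the 10% of microglia with most Cxcl13 had 63.2% of its UMIs in mavrilimumab 1, 98.6% in mavrilimumab 2 and 100% in both libraries labelled vehicle IgG. Xcr1, a receptor that marks cross-presenting dendritic cells, was at 1.54, 0.683, 14.3 and 16.3 CPM (log2 3.65, SE 0.56, unadjusted p = 0.00217). Ccr2 was at 9.75, 5.47, 41.4 and 30.7 CPM and Ccl12 at 510.2, 747, 1272 and 1349 CPM, with log2 differences of 2.23 (SE 0.42) and 1.12 (SE 0.27).

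For Xcr1, Ccr2 and Ccl12 the labels did not overlap either. With libraries not paired by number none was called by edgeR, with an adjusted p of 1.00 in each. Summed dendritic markers (5 genes, Ccr7 among them) in the same microglia were at 12.1, 13.7, 32.4 and 44.6 CPM, with 0 to 2 at 0. Summed monocyte or macrophage markers (6 genes) were at 1083, 944, 1529 and 1236 CPM. Both sums were higher under the mavrilimumab label, but the genes did not move together. Lyz2 made up most of the second sum (1058, 857, 1299 and 1046 CPM) and overlapped between labels, as did Mrc1, Ms4a7 and F13a1. Plac8 (10, 21.2, 114 and 115 CPM) and Ly6c2 (0.0668, 15.7, 39.9 and 56.2 CPM) were higher without overlap. Of the dendritic genes, so were Flt3 and Clec9a, while Zbtb46 and Ccr7 overlapped and Cd209a was seen in mavrilimumab 2 alone. Their part in the differences was not tested. The ligands Ccl2, Ccl3 and Ccl4 overlapped between labels, and Cx3cr1 differed by a log2 value of 0.01 (SE 0.39).

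**Figure D3:**
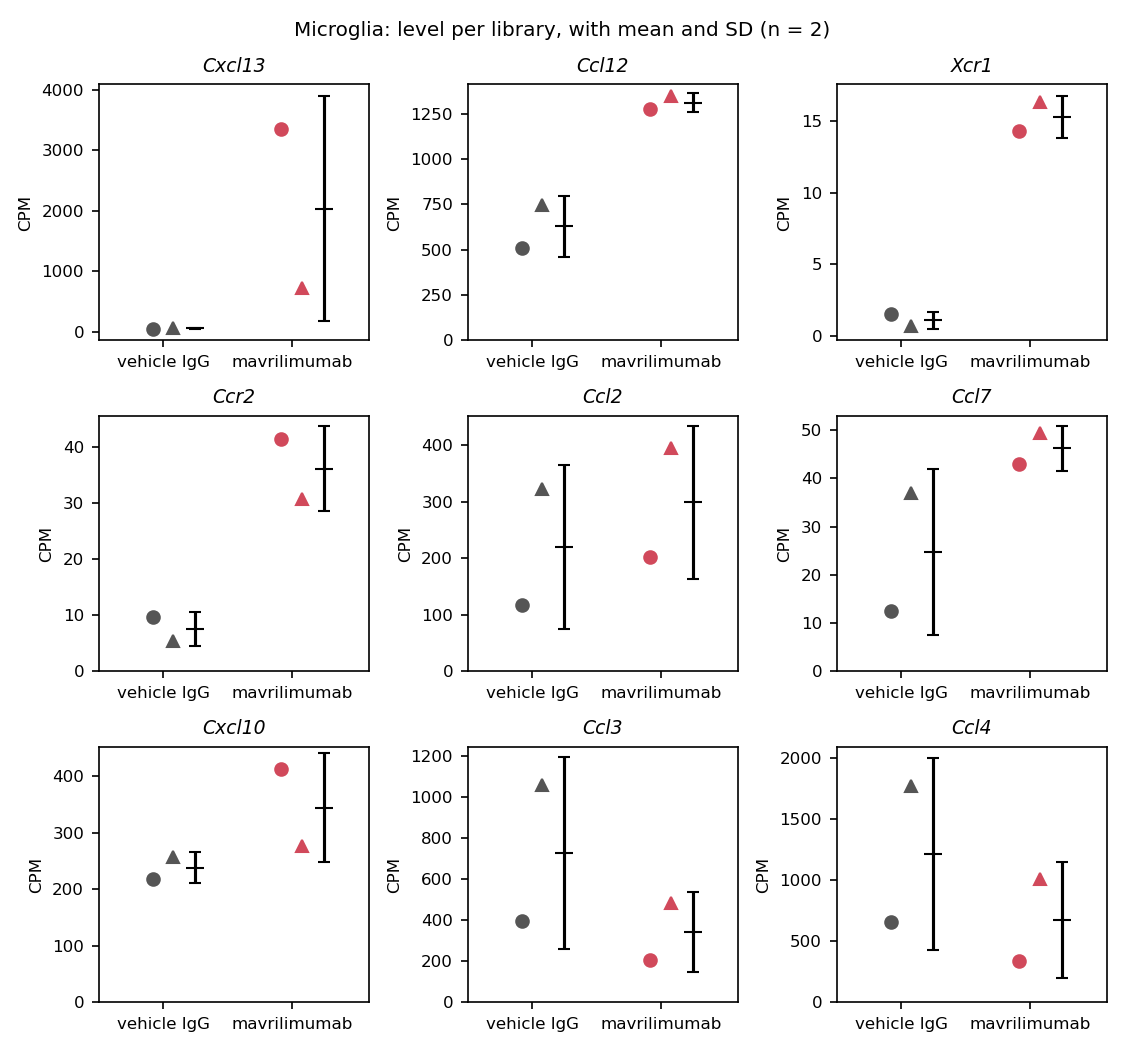
Level of 9 members in microglia (CPM) by treatment label (vehicle IgG gray, mavrilimumab red), with circles for replicate 1, triangles for replicate 2 and the mean and SD beside them (n = 2 per label). Cxcl13, Ccl12, Xcr1, Ccr2, Ccl7 and Cxcl10 do not overlap between labels, while Ccl2, Ccl3 and Ccl4 do. With n = 2 per label a lack of overlap does not set a member apart. No member was called by edgeR with libraries not paired by number.

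In CD8 T cells the smallest p-values were those of Ccr10, a skin-homing receptor, and Ccl3. Ccr10 was at 7.91, 2.34, 0.209 and 0.0341 CPM, near the detection limit throughout (log2 -5.41, SE 1.24). Ccl3 was at 5.93, 10.2, 77 and 21 CPM (log2 2.53, SE 0.73), and Ccl4, at 43.5, 101, 212 and 164 CPM, and Cxcl10, at 14.8, 71.5, 309 and 128 CPM, also did not overlap between labels. The adjusted p was 0.884 for each of these 4. Other tested members did not overlap either, such as Ccr2, Cxcr3 and Cxcr6 (higher under the mavrilimumab label) and Cxcr4, Ccr4, Ccl25 and Ccl27a (lower). Empty droplets held 163, 10.5, 52.2 and 66.8 CPM of Ccl3, so only mavrilimumab 1 had a CD8 T level above that of free RNA. For Ccl4 they held 201, 17.6, 114 and 140 CPM, above the CD8 T level in vehicle IgG 1 alone. The part of free RNA was not tested. For Ccl3 the library labelled mavrilimumab 1 stood apart, and there 598 of its 737 CD8 T UMIs were in clones of more than 3 cells, of which 111 were left without the largest clone.

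In CD4 T cells the smallest p-value was that of Cxcl10, at 13.3, 0, 249.7 and 51 CPM (log2 4.04, SE 1.11), with an adjusted p of 1.00. The labels did not overlap. In empty droplets Cxcl10 was at 61.8, 14.1, 179.5 and 106 CPM, so that of the 4 libraries only mavrilimumab 1 had a CD4 T level above that of the free RNA. Ccl5, the main cytotoxic ligand, differed by 0.35 (SE 0.44) in CD8 T cells and by 0.13 (SE 0.54) in CD4 T cells on the log2 scale.

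**Figure D4:**
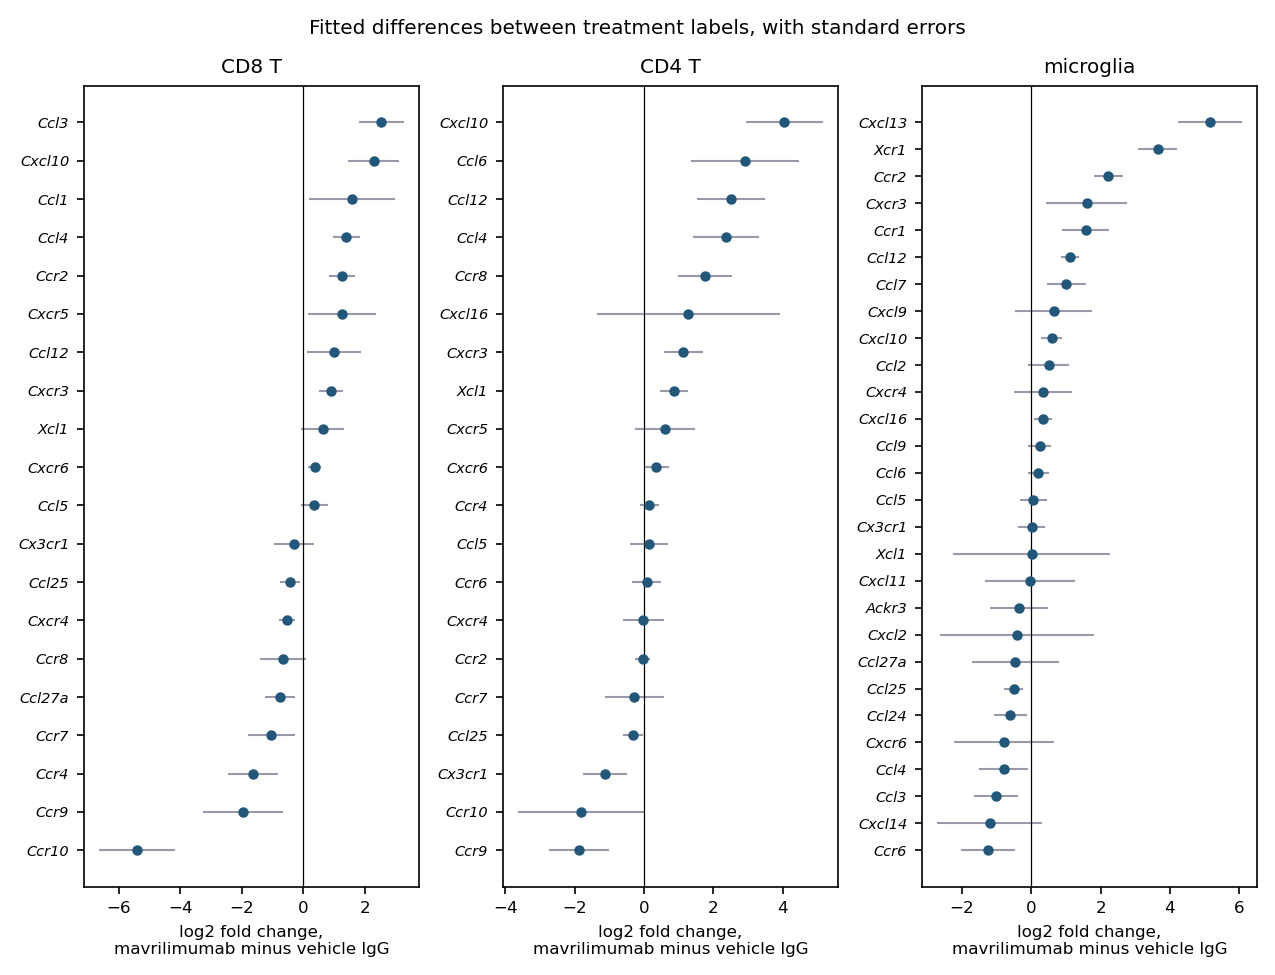
Fitted log2 difference, mavrilimumab minus vehicle IgG, with its standard error (bar) for 20 members tested in CD8 T cells, 20 in CD4 T cells and 28 in microglia, ordered by size. Cxcl13, Xcr1 and Ccr2 stand to the right in microglia, Ccl3 and Cxcl10 in T cells, and Ccr10 to the left in CD8 T cells. None was called in these edgeR fits, which used the filter on low counts and no block.

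NK cells gave 9 called members of 21, 4 higher and 5 lower, beside 11.9% of all tested genes, from 1 library labelled vehicle IgG and 2 labelled mavrilimumab, of which mavrilimumab 1 held 20 NK cells. With any of these 3 libraries left out, or with at least 50 cells, 2000 UMIs or at most 5% mitochondrial UMIs asked for, no test remained. The spread of the vehicle label was not measured, and the fit assumes that its lone library varies like the others, so that the calls compare these 3 libraries. Ccl1 (21.8 against 206 and 259.9 CPM), Cxcl10 (11.6 against 165 and 80.2 CPM), Ccr2 (106 against 280.1 and 265 CPM) and Xcl1 (1511 against 4012 and 2477 CPM) were the 4 higher. The 5 NK cells of vehicle IgG 1, too few to enter, had 434 CPM of Ccr2 (40 UMIs), above both libraries labelled mavrilimumab and against the direction of the call. Their Xcl1 level was 1813 CPM, below both, and they had no UMI of Ccl1 or Cxcl10. Empty droplets held 14.1, 179.5 and 106 CPM of Cxcl10 in the 3 libraries compared, above the NK level in each. The part of free RNA in the Cxcl10 values was not tested. DESeq2 called Ccl1 and Cxcl10 of the 9 and gave no adjusted p for Ackr3 and Cxcl2, and for Ccl1 1 cell per library held most UMIs, as given above.

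The 5 lower were Cxcl14, Ackr3, Cxcl2, Ccl4 and Ccr8. Cxcl14 was at 24.6 CPM in vehicle IgG 2 and at 0 in both others, and Ackr3 at 9.55 against 0 and 0.159 CPM. Cxcl2 was at 15.7 against 0 and 0.794 CPM, Ccl4 at 259 against 41.2 and 159.5 CPM, and Ccr8 at 32.7 against 0 and 11.4 CPM. The 5 cells of vehicle IgG 1 had no UMI of Cxcl14, Ackr3, Cxcl2 or Ccr8, and their 109 CPM of Ccl4 (10 UMIs, exact Poisson 95% interval 52.1 to 199.6, counting error only) lay between the libraries labelled mavrilimumab. At this depth a count of 0 allows up to 40.04 CPM by the same interval, above the vehicle IgG 2 level of these 4 members, so that no difference from vehicle IgG 2 was detectable for them. The 0 of mavrilimumab 1 allows up to 30.4 CPM, above the vehicle IgG 2 level of Cxcl14, Ackr3 and Cxcl2, so for these 3 members the lower level was detectable in mavrilimumab 2 alone. Cxcl14 and Ackr3 are members that led in neural cells, and the same 8 summed neural markers in the NK cells moved with them, from 1477 CPM to 0 and 15.1 CPM, with 0 of 8 markers at 0 in the vehicle library and 8 and 3 in the others. The part of neural RNA in these calls was not tested.

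Clone size gave a comparison within libraries. T cell receptor barcodes matched the library labelled mavrilimumab 2 for the receptor file labelled mavrilimumab 1 (2608 of 2749) and the reverse (4867 of 5659), and vehicle IgG 1 for its own (187 of 193). Receptor reads of vehicle IgG 2 were not analysed here. CD8 T cells with 1 alpha and 1 beta chain were divided into clones of 1 cell (509 and 933 cells in the expression libraries labelled mavrilimumab 1 and 2) and clones of more than 3 cells (655 cells in 70 clones, the largest of 149, and 197 cells in 37 clones). Vehicle IgG 1 held no clone of more than 3 CD8 T cells, so the comparison speaks of the libraries labelled mavrilimumab only.

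Of 17 members tested, 3 were called, beside 0.469% of all genes tested. Ccl5 rose from 3724 to 7375 CPM in mavrilimumab 1 and from 1774 to 4649 CPM in mavrilimumab 2, a log2 difference of 1.16 (SE 0.10, adjusted p = 0.0172). Ccr7 fell from 76.4 to 11.1 CPM and from 177 to 8.69 CPM (log2 -3.63, SE 0.33, adjusted p = 0.0202), and Ccr9 from 3.91 to 0.674 CPM and from 27.8 to 1.34 CPM (log2 -3.93, SE 0.47, adjusted p = 0.0392). The directions were the same in both libraries, up for the ligand and down for both homing receptors. For Ccr9 this rests on few counts in mavrilimumab 1, where all CD8 T cells together held 26 UMIs of it.

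Cxcr6 was at 412 and 623 CPM in mavrilimumab 1 and at 345 and 631 CPM in mavrilimumab 2, in clones of 1 and of more than 3 cells, and missed the threshold (log2 0.70, SE 0.10, adjusted p = 0.0578). Clones of 2 to 3 cells lay between the others for Ccl5 and Ccr7 in both libraries, with Ccl5 at 5622 and 3608 CPM. Xcl1 did not move in 1 direction, at 481 and 366 CPM in mavrilimumab 1 and 628 and 758 CPM in mavrilimumab 2. Without the largest clone of each library, an alternative chosen after seeing the data, Ccl5, Ccr7 and Ccr9 were called again. For Ccl4 and Ccl3 the largest clone raised the level in mavrilimumab 1. Ccl4 was at 479 CPM in clones of more than 3 cells and 249 CPM without that clone, and Ccl3 at 202 and 47.4 CPM. Clones of 1 cell had less of both, 87.7 and 17.8 CPM. Cells of a clone share their receptor and are not replicates, and without the library as a block no member was called.

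**Figure D5:**
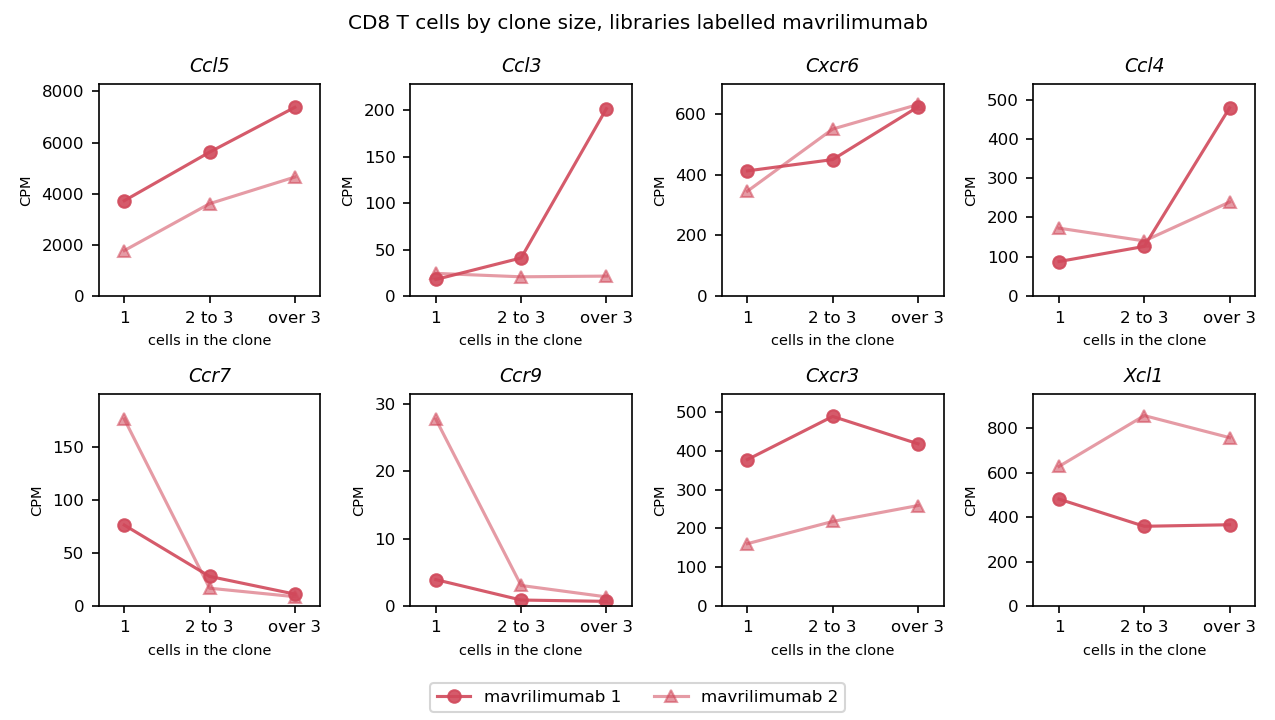
Level (CPM) of 8 members in CD8 T cells of clones of 1, 2 to 3 and more than 3 cells in the libraries labelled mavrilimumab 1 (circles) and mavrilimumab 2 (triangles, paler). In both libraries clones of more than 3 cells have more Ccl5 and less Ccr7 and Ccr9 than clones of 1 cell. Ccl3 and Ccl4 go up steeply in mavrilimumab 1, Ccl4 from 87.7 to 479 CPM.

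Set side by side, ligands and receptors had their highest means in different cell groups for some partners and in the same group for others. Ccl5 was highest in CD8 T cells (3617 ± 1356 CPM, n = 4) and its receptor Ccr1 in neutrophils (379 ± 49.2 CPM, n = 2), Cxcl16 in microglia and Cxcr6 in CD8 T cells, Ccl2, Ccl7 and Ccl12 in microglia and Ccr2 in NK cells, and Cxcl9 in microglia and Cxcr3 in T cells. Xcl1 was highest in NK cells, while Xcr1 was at most 16.3 CPM in any group and 59.7% of its UMIs lay in cells of no gate. Neutrophils had the highest mean of Cxcl1, Cxcl2 and Cxcl3 and of their receptor Cxcr2, and of Ccl6 and its receptor Ccr1, while Ccl3 overlapped between neutrophils and microglia. The ligands Ccl17 and Ccl22 of Ccr4 had 64 and 57 UMIs in kept cells and Ccl20 of Ccr6 had none, too few to place them in a cell group at this depth. A level in captured cells says nothing of the protein or of cells that the sort left out.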

How the data were processed

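Single cells were profiled with a droplet 5′ assay in 4 libraries, with matched T cell receptor files for 3 of them. The deposited matrices held raw UMI counts per gene and barcode, unfiltered, which the authors made in Cell Ranger (9.0.1 in the matrix headers, 7 and 7.1.0 in the submitters' processing notes, which also list Scanpy 1.8.2 and mm10). Library totals were 24354457 to 148657643 UMIs. Cells meeting more than 1 gate (0.854% to 4.11% of kept cells) were left out, and no doublet caller was run. The gates asked for at least 1 UMI of Cd3e with 2 of Cd8a and Cd8b1 (CD8 T) or 1 of Cd4 (CD4 T), 2 of Ncr1 and Klrb1c without Cd3e (NK), 2 of P2ry12 and Tmem119, 10 of S100a8 and S100a9 with 1 of Csf3r, or 3 of Nnat and Mdk without Ptprc. Counts were summed per library and group, and CPM divides them by all UMIs of that group. A UMI counts 1 molecule whatever its length, so CPM was not scaled by length. Summed counts were tested in edgeR 4.0.16 (quasi-likelihood, TMM, filterByExpr, R 4.3.3), with Benjamini-Hochberg adjustment over all tested genes. Tests between groups and by clone size had the library as a block, and those between labels had none. An SE given with an edgeR fit is the log2 difference, without its sign, divided by the square root of the test's F value. DESeq2 1.42.0, another scaling, no filter, other gates and depth limits and leaving out each library were alternatives, and the model code was tested on simulated data. Members named were, per cell group, the up to 5 with the largest fitted difference among those called higher at a mean of at least 20 CPM, every member called between labels or by clone size (where none was called, the 2 with the smallest p), and a list of ligands with their receptors. A few others were named after their values were seen: Ackr4, Ccl19, Ccl25, Ccl27a, Cxcl1, Cxcl11 and Ccl24. Members and lists were chosen with earlier results of these data known. Of the tested members, 1 is not reported here and is left out of the plots, while counts over the members include it.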

Additional observations from a re-analysis of the deposited data

How the results depend on the processing

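Of the fitted values of named members recomputed under the alternatives, 0 changed sign. With 1 library left out in turn, members called higher numbered 8 to 10 in CD8 T cells, 6 to 12 in CD4 T cells, 5 to 9 in NK cells, 16 to 24 in microglia, 7 to 11 in neutrophils and 2 to 8 in neural cells. The lowest counts for neutrophils (7, against 11) and neural cells (2, against 6) came without mavrilimumab replicate 2, which leaves 1 library for each of those groups, assumed to vary like the other groups. Without it the calls over all genes fell from 1695 to 435 and from 3957 to 1183, and also from 984 to 415 in NK cells, 1625 to 1003 in CD8 T cells and 1379 to 824 in CD4 T cells. Cxcl3 in neutrophils was not called by DESeq2 (adjusted p = 0.146) or without that library (0.132), nor Ackr3 in neural cells without it (0.0523). Cxcr6 in CD4 T cells was not called without either mavrilimumab library or with cells of several gates kept. With a library left out, 42 members were tested, or 46 without vehicle IgG 2, which gave the most members in microglia and CD4 T cells. All genes called higher there were 3691 and 1754 of 16405, against 3112 and 1379 of 15969 with all libraries. Microglia had 16 members with 2668 genes (without vehicle IgG 1) and 18 with 2341 (without mavrilimumab 2). NK cells had 9 with 852 (without mavrilimumab 1), against 7 with 984. Only in part did member counts follow all genes.

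Between treatment labels DESeq2 called 2 members in NK cells (9 by edgeR), and 246 genes against 1375. It called 1 in microglia, Cxcl13 (log2 5.12, adjusted p = 6.65e-10), and without a filter on low counts edgeR called 1 in CD8 T cells, Ccl3 (adjusted p = 0.0469), with 48 genes in all. Same-numbered libraries deviated together (correlations of 0.50 in CD8 T cells, 0.33 in CD4 T cells and 0.67 in microglia), but with 2 pairs they share only a number. With a replicate block 3 members were called in microglia (Cxcl13, Xcr1 and Ccr2, among 203 genes) and 0 in CD8 T and in CD4 T cells. By clone size 6 members were called with clones of 2 or more cells (187 genes), 11 without the filter (791 genes) and 0 without the library block (0 genes). The cause of these differences was not tested. Leaving out a library in the clone comparison was not run, since 2 libraries held large clones. Depth limits the low members: neutrophils rested on 49 and 73 cells in 2 libraries.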
